A study of Mus musculus with 6 samples.

Results

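Skeletal muscle takes up most of the glucose that leaves the blood after a meal, and the RNA of 10 genes on that route was described here in mouse soleus, from the transporters at the fiber surface through insulin signaling to the enzymes that phosphorylate, store and release glucose. The genes were *Slc2a1*, *Slc2a4*, *Insr*, *Irs1*, *Irs2*, *Akt2*, *Tbc1d4*, *Hk2*, *Gys1* and *Pygm*, taken by their symbols from the normalized table and joined to the raw counts by their gene identifiers. All 10 were found, 10 were joined, and 10 were among the 14696 genes with enough reads to be tested, out of 51912 genes in the count table.

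Insulin binds its receptor, the receptor phosphorylates insulin receptor substrates, and PI3K recruited there leads to activation of Akt. Akt phosphorylates the Rab GTPase-activating protein TBC1D4, which lets vesicles loaded with the glucose transporter GLUT4 fuse with the fiber membrane. Glucose that enters is phosphorylated by hexokinase, stored as glycogen by glycogen synthase and released from glycogen by glycogen phosphorylase. Most of this control acts on proteins through phosphorylation and traffic, and RNA levels report only on the supply of each transcript.

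The soleus, a postural muscle of the calf, is made up largely of slow and oxidative fibers. Its polyA RNA was sequenced from 3 mice heterozygous for the Mustn1 KO-first allele (HET) and 3 wild-type (WT) littermates, with 1 library per mouse, all labelled as 8-week-old males of the C57BL6/N strain with no treatment given. In the KO-first allele, carried in every tissue, exon 1 of *Mustn1* is spliced into a lacZ and neomycin resistance trap, the other copy of the gene is intact in HET mice, and the study describes the trap as leaky under certain conditions. The comparison asks whether soleus from young HET mice holds more or less of these transcripts than soleus from WT mice.

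The libraries held between 26790075 and 50368796 reads on genes. *Mustn1*, the targeted gene, had 471, 452 and 574 reads in HET mice and 691, 817 and 1504 in WT mice, which came to 14.2 ± 2.33 and 27.5 ± 3.89 CPM, a count scaled for the depth of its library (mean ± SD, n = 3 each). It was 0.513 times as high in HET mice (log2 fold change -0.96, SE 0.15, edgeR's quasi-likelihood test, Benjamini-Hochberg adjusted p = 0.0452), and over 15 other settings the adjusted p lay between 1.06e-10 and 0.28. All 6 mice are labelled male, yet *Xist* reads numbered from 3858 to 9154 per library, and reads summed over the Y-linked *Ddx3y*, *Kdm5d*, *Uty* and *Eif2s3y* numbered from 0 to 12. These counts conflict with the male label in all 6 libraries, and the labels were kept as given. *Myh7*, the slow myosin heavy chain of the labelled tissue, lay between 13642 and 14766 CPM in every mouse.

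No transcript of the route was called different between HET and WT mice, with 3 mice of each genotype. Of the 10 genes, 0 passed the threshold of 0.05 on the adjusted p, where 0.150% of all 14696 genes did, 0.143% higher in HET mice and 0.00680% lower. Of the 10 genes, 0 had an unadjusted p below 0.05, where 7.76% of all genes did and 5.76% were higher in HET mice at that p. The 95% intervals of the 10 folds together ran from 0.707 to 1.43. DESeq2's Wald test, limma-voom and limma on the authors' normalized values also called 0 of the 10, with 0 at an unadjusted p below 0.05. The log2 fold change was below 0 for 7 genes and above 0 for 3, against 54.4% of all genes below 0, and its median was -0.05 against -0.02 over all genes. For 1 of the 10 genes, *Insr*, all HET mice lay below all WT mice, where 6.02% of all genes had that order and 13.6% had no overlap in either direction. In whole muscle, fewer cells of a type and less RNA per cell cannot be told apart, for these genes as for any other.

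**Figure D1:**
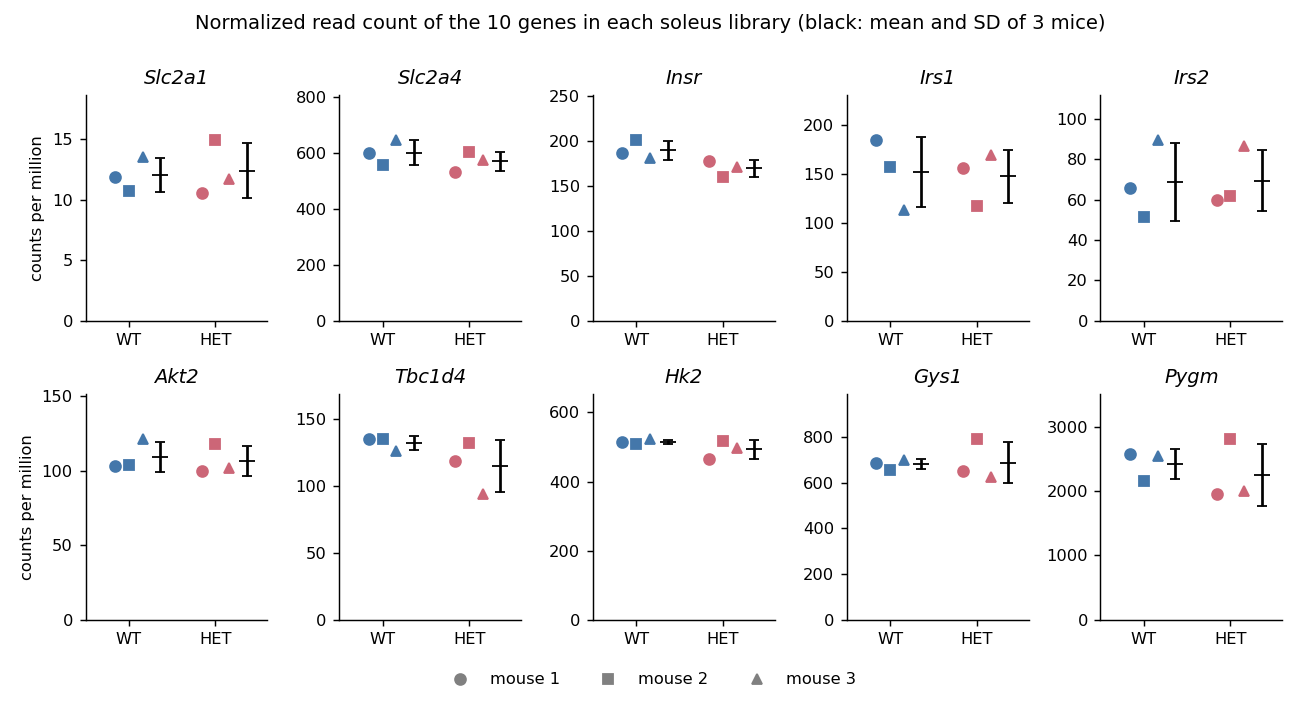
Normalized read count (CPM, linear axis from 0) of each of the 10 genes, with 1 point per mouse, blue for WT and red for HET, and the mean and SD of 3 mice in black. The points of both genotypes overlap in 9 of the 10 panels, and for Insr the 3 HET points, up to 178 CPM, lie below the 3 WT points, from 181 CPM.

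The glucose transporters came first in the route. *Slc2a4* (ENSMUSG00000018566, chr11:69942539-69948188 of GRCm38, minus strand) encodes GLUT4, the transporter that insulin and contraction bring to the fiber surface. It measured 532, 602 and 576 CPM in HET mice and 601, 557 and 646 CPM in WT mice. The HET mouse with the least *Slc2a4* was the lowest of all 6 and the genotypes overlapped, at a fold of 0.948 (95% interval 0.823 to 1.09, adjusted p = 0.922 by edgeR's quasi-likelihood test). *Slc2a1* (ENSMUSG00000028645, chr4:119108711-119137983, plus strand) encodes GLUT1, a transporter of many cell types that serves basal uptake. It measured 10.5, 14.9 and 11.7 CPM in HET mice and 11.9, 10.7 and 13.5 CPM in WT mice. The HET mice held both the lowest and the highest of these 6 values, and the fold was 1.02 with an interval from 0.807 to 1.29 (edgeR, adjusted p = 0.982).

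Per exon length, *Slc2a4* stood far above *Slc2a1*. In CPM per kilobase of exon (RPKM) the ratio of *Slc2a4* to *Slc2a1* within a mouse was 51.1, 40.7 and 49.7 in HET mice and 51.0, 52.4 and 48.2 in WT mice. HET 2, with the most *Slc2a1*, had the lowest ratio, and the genotypes overlapped. The other 4 transporter genes that were tested spread on both sides of 0, with 0 called. The highest log2 fold change among them was that of *Slc2a10* (0.35, SE 0.29, adjusted p = 0.878 by edgeR) and the lowest that of *Slc2a12* (-0.15, SE 0.10, adjusted p = 0.843), an insulin-responsive transporter whose HET mice, at 18.5, 17.1 and 16.2 CPM, all lay below the WT mice, at 19.5, 18.7 and 19.3 CPM.

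The insulin receptor was the gene whose genotypes did not overlap. *Insr* (ENSMUSG00000005534, chr8:3122061-3279617, minus strand) encodes the receptor tyrosine kinase at the head of the pathway. It measured 178, 159.9 and 171 CPM in HET mice and 187, 201 and 181 CPM in WT mice, or 169.7 ± 9.13 and 190.0 ± 10.3 CPM (mean ± SD, n = 3 each). The gap between the nearest HET and WT mice was small beside the range within each genotype. The fold was 0.893 with a 95% interval from 0.785 to 1.02 (log2 fold change -0.16, SE 0.08), and the difference did not pass the test (unadjusted p = 0.0808, adjusted p = 0.745, edgeR). Without HET 2, the HET mouse with the least *Insr*, the log2 fold change was -0.11 (adjusted p = 0.75), and over 15 settings it stayed between -0.20 and -0.11. An exact permutation test of 3 mice against 3 cannot go below p = 0.1.

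The receptor substrates were the most variable members. *Irs1* (ENSMUSG00000055980, chr1:82233101-82291416, minus strand) encodes the docking protein that carries most of the signal to glucose uptake in muscle, and it measured 156, 117 and 169 CPM in HET mice and 184, 157 and 113 CPM in WT mice. *Irs2* (ENSMUSG00000038894, chr8:10984681-11008458, minus strand) encodes a related docking protein, and it measured 59.6, 62.0 and 86.6 CPM in HET mice and 65.9, 51.2 and 89.4 CPM in WT mice. Neither gene separated the genotypes. The highest mouse exceeded the lowest by 1.63 times for *Irs1* and 1.74 times for *Irs2*, and the SD of log2 CPM within a genotype, at 0.322 and 0.35, was larger than in 88.8% and 91.5% of all genes tested.

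The spread of the substrates left the widest intervals. The fold was 0.974 for *Irs1* (95% interval 0.715 to 1.33, adjusted p = 0.982, edgeR) and 1.01 for *Irs2* (0.707 to 1.43, adjusted p = 0.997, edgeR). Folds inside these intervals are compatible with the values of 3 mice per genotype. The intervals do not give the smallest difference that could have been called. The substrates did not vary together from mouse to mouse: WT 3 had the lowest *Irs1* and the highest *Irs2* of the 6 mice, while HET 3 was high in both. The ratio of *Irs1* to *Irs2* in RPKM was 1.81, 1.30 and 1.35 in HET mice and 1.93, 2.11 and 0.875 in WT mice, so that *Irs2* was the more abundant in WT 3 alone.

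Because *Irs1* and *Irs2* varied most, the 250 bases before their RefSeq start sites are given, which lie at chr1:82291440-82291689 and chr8:11008930-11009179 of GRCm38.p6, both on the minus strand. Of the 8 members with an entry in the RefSeq promoter table, these 2 alone hold the E-box CACGTG, which reads the same on both strands and is shown in capitals, against 6.02% of 32851 promoters in the table.
Irs1: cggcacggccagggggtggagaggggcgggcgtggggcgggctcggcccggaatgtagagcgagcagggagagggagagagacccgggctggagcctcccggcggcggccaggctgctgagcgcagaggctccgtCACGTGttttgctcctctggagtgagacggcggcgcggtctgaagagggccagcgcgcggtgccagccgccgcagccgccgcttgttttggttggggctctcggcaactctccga
Irs2: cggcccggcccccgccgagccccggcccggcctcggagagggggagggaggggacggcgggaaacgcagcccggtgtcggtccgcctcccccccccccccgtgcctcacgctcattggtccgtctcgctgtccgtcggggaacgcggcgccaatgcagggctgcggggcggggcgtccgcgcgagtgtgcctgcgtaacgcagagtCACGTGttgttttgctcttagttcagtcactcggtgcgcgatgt
The E-box begins 115 bases before the start of *Irs1* and 44 bases before that of *Irs2*. The GC box GGGCGG, searched on both strands without regard to E-box matches, was found for 7 of the 8 members, *Pygm* being the exception. It was in 32.7% of all promoters. For both motifs a member counted if any of its promoter entries held the motif. The percentages are of single promoters, so counts and percentages are not of like units. These are matches of letters, and nothing was measured here about proteins at these sites.

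Among the other 9 tested genes of the receptor, its substrates and PI3K, 0 were called. The highest log2 fold change was that of *Pik3r2* (0.13, SE 0.13, adjusted p = 0.899 by edgeR) and the lowest that of *Pik3r1* (-0.23, SE 0.12, adjusted p = 0.76), which both encode regulatory subunits of PI3K. *Irs4*, with between 0 and 1 reads per library, had too few reads to be tested.

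The signal passes next to Akt and TBC1D4. *Akt2* (ENSMUSG00000004056, chr7:27591552-27640826, plus strand) encodes the Akt kinase most tied to glucose uptake, and it measured 99.8, 118 and 102 CPM in HET mice and 103, 104 and 121 CPM in WT mice. The genotypes overlapped nearly completely, at a fold of 0.977 (95% interval 0.838 to 1.14, adjusted p = 0.973, edgeR). In RPKM, *Akt1* was 1.55 to 2.13 times as abundant as *Akt2* in the 6 mice. This ratio did not separate the genotypes.

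*Tbc1d4* (ENSMUSG00000033083, chr14:101442360-101609191, minus strand) had the lowest log2 fold change of the 10 genes. It measured 119, 132 and 94.0 CPM in HET mice and 135, 135 and 126 CPM in WT mice. HET 1 and HET 3 lay below every WT mouse, and HET 2 lay within the WT range. The fold was 0.868 with a 95% interval from 0.725 to 1.04 (log2 fold change -0.20, SE 0.12, adjusted p = 0.793, edgeR). The value rested on HET 3, without which the log2 fold change was -0.07 (adjusted p = 0.965).

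The 15 other tested genes of the Akt kinases, the mTOR complexes and the Akt substrates gave 0 calls. Their log2 fold changes ran from -0.22 for *Foxo1* (SE 0.13, adjusted p = 0.804, edgeR), a transcription factor that Akt keeps out of the nucleus, to 0.12 for *Rptor* (SE 0.09, adjusted p = 0.863), which encodes the Raptor subunit of mTOR complex 1. Of the 18 tested genes of GLUT4 vesicle traffic other than *Tbc1d4*, 0 were called. Below 0 were 11 of them, where 54.4% of all genes were. *Pak1*, which encodes a kinase downstream of Rac1, was the lowest (log2 fold change -0.37, SE 0.20, adjusted p = 0.76, edgeR). *Lrp1*, which encodes a large endocytic receptor found also on GLUT4 vesicles, was the highest, at 104, 114 and 123 CPM in HET mice and 45.7, 61.2 and 86.6 CPM in WT mice. Its HET mice all lay above its WT mice (log2 fold change 0.81, SE 0.21, adjusted p = 0.263, edgeR), and it passed the threshold in 5 of the 15 other settings.

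The hexokinase gene was the steadiest member. *Hk2* (ENSMUSG00000000628, chr6:82725025-82774454, minus strand) encodes the main hexokinase of muscle, and it measured 464, 518 and 498 CPM in HET mice and 513, 509 and 522 CPM in WT mice. HET 1 and HET 3 lay below the WT mice and HET 2 within their range, at a fold of 0.958 (95% interval 0.844 to 1.09, adjusted p = 0.931, edgeR). Its SD of log2 CPM within a genotype was 0.0579, and 4.70% of all genes tested varied less. *Hk1*, which encodes the hexokinase of most other tissues, measured 18.4, 19.2 and 18.8 CPM in HET mice and 16.1, 17.7 and 16.7 CPM in WT mice. Each HET mouse was above each WT mouse, but the difference did not pass the test (log2 fold change 0.16, SE 0.10, adjusted p = 0.815, edgeR). *Hk3* and *Hkdc1* had too few reads to be tested.

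Glycogen synthase and glycogen phosphorylase, the opposed enzymes of glycogen turnover, were both abundant. *Gys1* (ENSMUSG00000003865, chr7:45434844-45456619, plus strand) encodes the muscle glycogen synthase, and it measured 649.8, 789.6 and 623 CPM in HET mice and 686, 656 and 699 CPM in WT mice. The HET mice held the lowest and the highest of the 6 values, at a fold of 1.01 (95% interval 0.863 to 1.18, adjusted p = 0.988, edgeR). *Pygm* (ENSMUSG00000032648, chr19:6384399-6398459, plus strand) encodes the muscle glycogen phosphorylase, and it measured 1947, 2802 and 1995 CPM in HET mice and 2568, 2152 and 2547 CPM in WT mice. HET 2 was the highest mouse for both genes, HET 1 and HET 3 were below every WT mouse, and the *Pygm* fold was 0.928 (0.744 to 1.16, adjusted p = 0.931, edgeR). Without HET 2, the *Pygm* log2 fold change moved from -0.11 to -0.28 (adjusted p = 0.365).

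**Figure D2:**
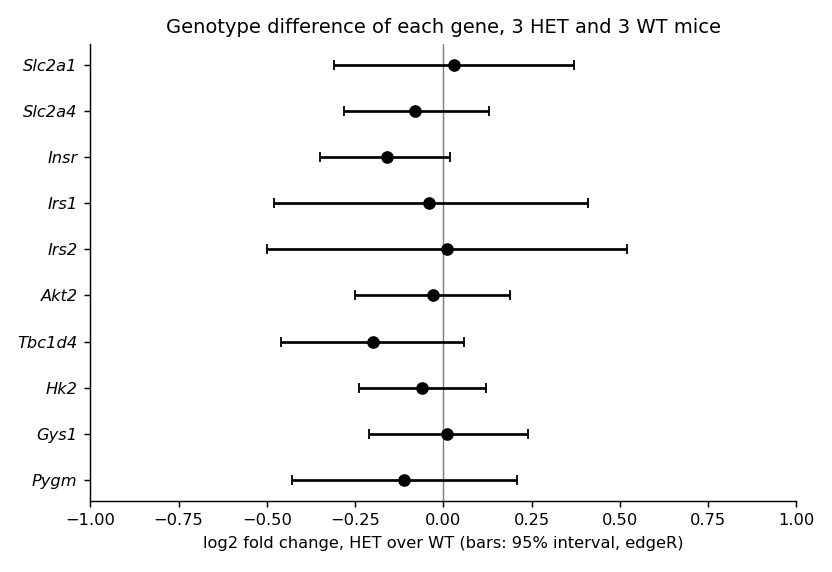
Log2 fold change of HET over WT for each of the 10 genes (points) with its 95% interval (bars), from the edgeR fit on 3 HET and 3 WT mice. Every interval includes 0, the lowest point is Tbc1d4 at -0.20 and the highest is Slc2a1 at 0.03, and Irs1 and Irs2 have the widest bars.

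The proportion of these enzymes did not separate the genotypes. The ratio of *Pygm* to *Gys1* in RPKM was 4.46, 5.28 and 4.77 in HET mice and 5.57, 4.88 and 5.42 in WT mice, with overlap. The ratio of *Pygm* to *Pygb*, the brain form of phosphorylase, was 235 ± 24.5 in HET mice and 302 ± 32.5 in WT mice, and that of *Hk2* to *Hk1* was 37.5 ± 1.32 and 43.8 ± 2.33 (mean ± SD, n = 3 each). These 2 of the 9 ratios computed did not overlap between genotypes. Of all single genes 13.6% had no overlap in either direction, and no such share was computed for ratios. An exact permutation test of 3 mice against 3 cannot place such a separation below p = 0.1.

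Of the 14 other tested genes of glycogen synthesis, 0 were called and 11 were below 0, where 54.4% of all genes were below 0. *Stbd1*, which encodes a glycogen-binding protein, was the lowest (log2 fold change -0.38, SE 0.15, unadjusted p = 0.033, adjusted p = 0.574, edgeR) and *Ppp1r3e* the highest (0.23, SE 0.32, adjusted p = 0.935). Of the 9 other genes of glycogen breakdown, 0 were called. The lowest was *Phkb*, a subunit of phosphorylase kinase, at 130.3, 127 and 129 CPM in HET mice and 178, 146 and 146 CPM in WT mice. Its genotypes did not overlap, but the difference did not pass the test (log2 fold change -0.28, SE 0.10, unadjusted p = 0.0145, adjusted p = 0.415, edgeR). The highest was *Pygl*, the liver form of phosphorylase, which lay between 1.38 and 3.91 CPM (0.65, SE 0.29, adjusted p = 0.641).

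Per exon length the 10 genes fell into 3 ranges. *Pygm* was at the top with a mean of 726 RPKM over the 6 mice, the 54th highest of 14696 genes, followed by *Slc2a4* at 168, *Gys1* at 143 and *Hk2* at 84.4 RPKM. *Irs1*, *Tbc1d4*, *Akt2*, *Insr* and *Irs2* came next with means of 16.3, 16.1, 15.1, 13.1 and 10.9 RPKM. *Slc2a1* was the lowest at 3.48 RPKM, near the median of 2.73 RPKM over all genes tested. In RPKM the 5 signaling genes, from the receptor to *Tbc1d4*, thus lay below the genes for GLUT4, hexokinase and the glycogen enzymes and above that for GLUT1.

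**Figure D3:**
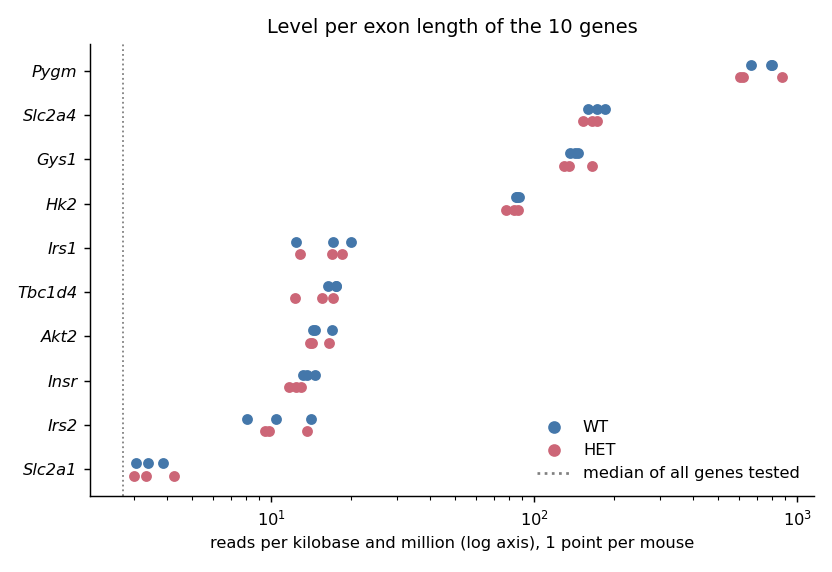
Level of the 10 genes in RPKM (log axis), with 1 point per mouse, blue for WT and red for HET, and a dotted line at the median of all genes tested, 2.73 RPKM. Pygm, Slc2a4, Gys1 and Hk2 lie between 77.7 and 871 RPKM, and the genotypes overlap in every row but that of Insr.

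Neighbours in this order did not all differ beyond their spread. The ranges of the 6 mice were separate between *Pygm* and *Slc2a4*, between *Gys1* and *Hk2*, between *Hk2* and *Irs1* and between *Irs2* and *Slc2a1*. *Slc2a4* exceeded *Gys1* in 6 of 6 mice although their ranges overlapped. The order of *Irs1*, *Tbc1d4*, *Akt2*, *Insr* and *Irs2* was not settled, since each neighbour exceeded the next in only 3, 4, 5 and 4 of 6 mice.

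Mice of the same genotype differed in several of these genes at once. Together the 10 genes held between 0.435% and 0.532% of a library's reads, the extremes being HET 1 and HET 2. This share leaned on *Pygm*, with a mean of 83133 reads per mouse against 24395 for *Gys1*, the next of the 10. Among HET mice, HET 2 had the most of 7 genes and the least of 2, *Insr* and *Irs1*. The summed level of 9 fast fiber markers was 46306, 55271 and 47647 CPM in HET mice and 53890, 51833 and 53934 CPM in WT mice. *Myh4*, the fastest myosin heavy chain of mouse muscle, measured 44.7, 2042 and 167 CPM in HET mice and 1470.3, 1774 and 976 CPM in WT mice (log2 fold change -0.91, SE 1.5, adjusted p = 0.948, edgeR). In the summed level and in *Myh4*, HET 2 lay above every WT mouse, and HET 1 and HET 3 lay below every WT mouse. Of the single markers, only *Myh4* and *Atp2a1* followed this order. For *Tnnc2*, *Tnni2*, *Tnnt3* and *Pvalb*, HET 2 also lay below every WT mouse. For *Myh1*, HET 2 was the lowest of all mice, at 4083 CPM, and for *Mylpf* it lay within the WT range. For *Myh2*, HET 2 and HET 3 lay above every WT mouse. The part of fiber type in the levels of the 10 genes was not tested.

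Among 10 genes linked to FoxO or to fasting, *Pdk4*, *Ucp3* and *Angptl4* varied more within a genotype than at least 99.9% of all genes tested, while *Cdkn1a* varied more than 46.6%. *Pdk4*, which encodes a kinase that shuts off pyruvate oxidation in fasting, measured 1285, 3661 and 682 CPM in HET mice and 727, 2216 and 1592 CPM in WT mice. *Angptl4*, which encodes an inhibitor of lipoprotein lipase, measured 7.43, 54.2 and 2.64 CPM in HET mice and 3.65, 15.6 and 4.17 CPM in WT mice. The mice with the most *Pdk4*, HET 2 and WT 2, had the most *Angptl4*, and *Irs2* did not follow them, being highest in HET 3 and WT 3. None of the 10 genes of this list was called, *Irs2* included. The highest was *Angptl4* (log2 fold change 1.46, SE 1.38, adjusted p = 0.899, edgeR) and the lowest was *Klf15* (-0.25, SE 0.24, adjusted p = 0.893, edgeR). The feeding state of these mice at sampling was not given in the sources used here.

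Among genes that restrain insulin signaling, 2 of 13 had HET mice all above WT mice, where 7.55% of all genes did. *Socs1*, which encodes a suppressor of cytokine signaling that can bind insulin receptor substrates, measured 0.507, 0.894 and 0.889 CPM in HET mice and 0.368, 0.213 and 0.263 CPM in WT mice, from 6 to 39 reads per library. *Socs3*, of the same family and chosen after its values were seen, measured 6.92, 9.02 and 5.47 CPM in HET mice and 4.85, 3.05 and 4.34 CPM in WT mice. Their log2 fold changes were 1.43 (SE 0.40, unadjusted p = 0.00504) and 0.79 (SE 0.22, unadjusted p = 0.005), each with an adjusted p of 0.268 (edgeR). The other 11 genes of this list, *Ptpn1* among them, overlapped, and *Pik3ip1* was the lowest (-0.22, SE 0.24, adjusted p = 0.911).

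AMPK offers a route to glucose uptake in contracting muscle that does not need insulin, and 0 of its 7 subunit genes were called. *Prkab2*, which encodes the beta subunit most abundant in skeletal muscle, measured 83.0, 77.5 and 67.7 CPM in HET mice and 106, 84.2 and 94.9 CPM in WT mice. The HET mice all lay below the WT mice (log2 fold change -0.32, SE 0.11, unadjusted p = 0.0147, adjusted p = 0.416, edgeR), while *Prkab1* was the highest of the list (0.09, SE 0.13, adjusted p = 0.943). The 7 regulators of *Slc2a4* transcription, including *Mef2a*, *Mef2c*, *Mef2d* and *Ppargc1a*, lay between *Klf15* at -0.25 and *Hdac5* at 0.08 (SE 0.13, adjusted p = 0.943), with 0 called.

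Over all lists, 104 other genes were tested, each counted once, and 0 were called by edgeR's quasi-likelihood test. At an unadjusted p below 0.05 there were 8 (*Socs1*, *Socs3*, *Lrp1* and *Pygl* higher in HET mice, *Stbd1*, *Epm2a*, *Phkb* and *Prkab2* lower), where 7.76% of all genes had such a p. HET mice were all above WT mice for 4 genes, where 7.55% of all genes were, and all below for 7, where 6.02% were. The median log2 fold change was -0.04 and 60.6% lay below 0, against -0.02 and 54.4% over all genes. *Lrp1* was called in 5 other settings and *Socs3* in 2, DESeq2's Wald test and no filter on low counts among them for both.

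**Figure D4:**
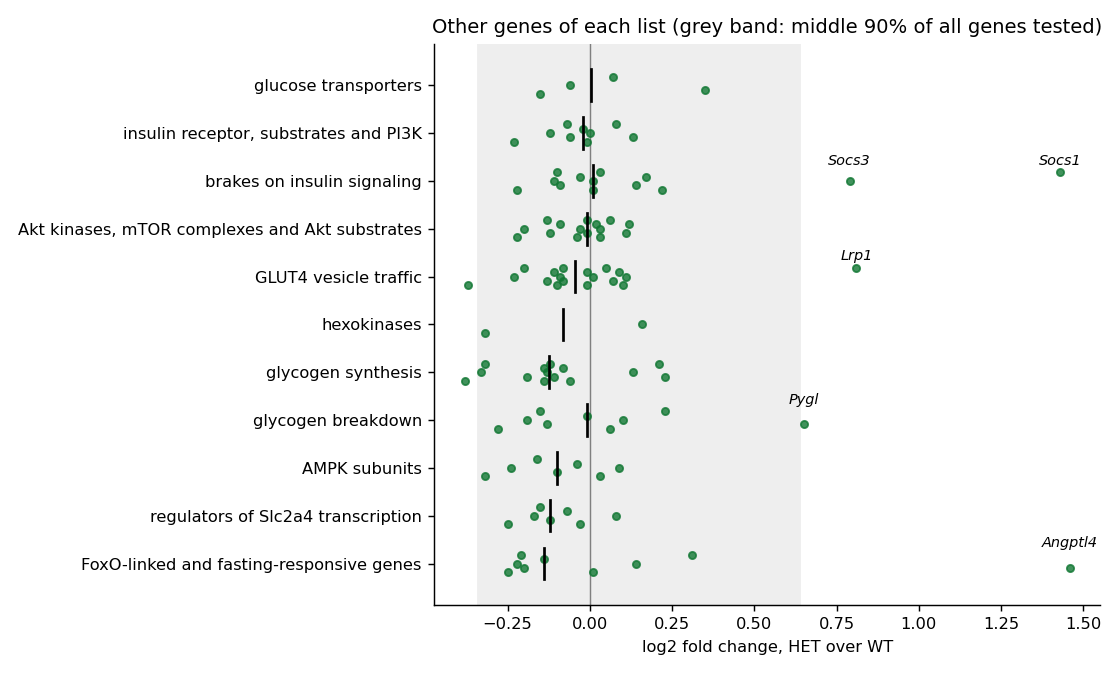
Log2 fold change of HET over WT for the other genes of each list (green points) with the median of the points as a black line, and the middle 90% of all genes tested, from -0.34 to 0.64, as a grey band. Most points lie within the band, and Socs1, Socs3, Lrp1, Pygl and Angptl4 lie to its right and Pak1 and Stbd1 just to its left, none of them past the threshold.

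Of the markers of other cells, 5 of macrophages and 1 of fibroblasts passed the test, all higher in HET mice. Over all genes 0.143% were called higher in HET mice, and 54.4% had a log2 fold change below 0. With a mouse left out, 0 of all genes passed without HET 1, HET 3, WT 1 or WT 2, 15 without HET 2 and 83 without WT 3. Those fits rest on fewer mice, and the part of any single mouse in the calls was not tested. All 8 macrophage markers were above 0 with a median log2 fold change of 1.34, 5 of them called by edgeR's quasi-likelihood test, and their summed level was between 79.8 and 115 CPM in HET mice and between 47.5 and 51.7 CPM in WT mice. All 7 fibroblast markers (median 0.60, 1 called) and all 5 tenocyte markers (1.04, 0 called) were above 0, at summed levels of 1344 to 1967 against 666 to 1017 CPM and of 319 to 552 against 100.5 to 257 CPM. The 6 adipocyte markers were above 0 (1.07, 0 called) with overlapping sums of 73.2 to 229 and 25.1 to 102 CPM.

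Of the slow fiber markers 7 of 8 were below 0 (median -0.08), where 54.4% of all genes were. Their sums lay between 39568 and 42408 CPM in HET mice and between 40479 and 45124 CPM in WT mice. Of the fast fiber markers 8 of 9 were below 0 (median -0.18), with sums of 46306 to 55271 and 51833 to 53934 CPM, and 0 of either list were called. For 4 of the 9 fast fiber markers, *Tnnc2*, *Tnni2*, *Tnnt3* and *Pvalb*, all HET mice lay below all WT mice, where 6.02% of all genes had that order. *Pvalb*, which encodes the calcium buffer of fast fibers, measured 205, 426 and 295 CPM in HET mice and 684, 552 and 429 CPM in WT mice (log2 fold change -0.85, SE 0.29, unadjusted p = 0.0237, adjusted p = 0.492, edgeR). Sums of the other markers overlapped between genotypes, at medians of -0.01 for endothelial cells, 0.10 for smooth muscle, -0.24 for red blood cells and 0.05 for Schwann cells, with 0 called. All 62 marker genes had reads in every library. The part of these cells in the values of *Lrp1*, *Socs1*, *Socs3* and *Pygl*, or of the 10 genes, was not tested.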

How the data were processed

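The authors aligned reads to GRCm38.p6 with STAR 2.7.3a and made the deposited raw counts per gene with featureCounts 2.0.3 in its reverse-stranded mode, using a stranded library kit. The authors' second table is a normalized signal for 16247 genes, made by dividing each library's counts by its DESeq2 size factor. Another table, of the authors' own comparison (fold changes and p-values), was not used. No deposited column of values lacked a sample (0 unmatched).

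The members and gene lists were chosen with earlier results of these data known. Genes were kept by filterByExpr (minimum count 10), scaled by TMM and compared between HET and WT mice by quasi-likelihood F tests with robust dispersion in edgeR 4.0.16 (limma 3.58.1, R 4.3.3), two-sided, with genotype as the only term and Benjamini-Hochberg adjustment over the 14696 genes tested. The SE was the log2 fold change over the square root of F, and intervals (95%) used its t distribution. RPKM used the exon bases of the count table. Libraries of a genotype differed beyond counting noise (chi-square per gene 16.1 to 46.8). Each mouse is 1 sample, and precision rests on 26790075 to 50368796 reads per library and 3 mice per genotype. Named genes were the members, *Mustn1*, and per pathway list those called or, with none, the highest and lowest; others were chosen after their values were seen, and some genes under this rule are not reported here. Alternatives were RLE scaling, no filter, DESeq2 1.42.0, limma-voom, limma on log2 of the normalized signal plus 1, a non-robust dispersion, a replicate block, offsets that take out each library's gene length trend, these last combined, and each mouse left out. The steps were tested on simulated data. Promoters came from RefSeq, with 8 of 10 members matched. Tables and plots used Python 3.11.15, NumPy 2.4.6, pandas 2.3.3 and matplotlib 3.10.9.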

Additional observations from a re-analysis of the deposited data

How the results depend on the processing

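Under each of 15 alternatives 0 of the 10 genes passed the threshold, with at most 2 at an unadjusted p below 0.05 (without HET 2). The log2 fold change changed sign in some settings for 5 of them. It was -0.0075 for *Slc2a1* with limma-voom, and with a mouse left out it ranged from -0.1067 to 0.1364 for *Slc2a1*, from -0.2112 to 0.1278 for *Irs1*, from -0.1778 to 0.2451 for *Irs2*, from -0.0969 to 0.0459 for *Akt2* and from -0.0836 to 0.0843 for *Gys1*. Among the other named genes it ranged from -0.1195 to 0.5038 for *Ppp1r3e*, from -0.0661 to 0.177 for *Hdac5*, from -0.4491 to 0.0298 for *Klf15* and from -0.615 to 2.4254 for *Angptl4*, negative only without HET 2 for *Angptl4*, *Hdac5* and *Ppp1r3e*. The number of the 10 genes below 0 was 7 in the test as reported, 10 without WT 2 and between 6 and 8 elsewhere. Every level in RPKM moved by less than 1 SD between mice under RLE scaling and with each mouse left out.

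Of the other 104 genes, 2 passed the threshold with no filter on low counts (*Lrp1* and *Socs3*) and 2 with DESeq2's Wald test (the same genes), and with a mouse left out the count was between 0 and 1 (*Lrp1* without WT 3). Over all genes the count moved from 22 to 404 with no filter, 226 with DESeq2, 3 with limma-voom, 9 with limma on the normalized signal and 6 with non-robust dispersion, and between 0 and 83 with a mouse left out (0 without HET 1, HET 3, WT 1 or WT 2, and 83 without WT 3). *Mustn1* no longer passed with limma-voom (log2 fold change -0.99, adjusted p = 0.0673), limma on the normalized signal (-0.95, 0.0564) or non-robust dispersion (-0.96, 0.0606), and with a mouse left out it was between -1.09 and -0.88 and passed in 2 of 6 fits. The cause of these changes was not tested.

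Replicate numbers are shared by both genotypes, but nothing in the labels says that they pair the mice, and the correlations of same-numbered mice in their deviations from the genotype mean were 0.203, -0.00578 and -0.0349, so not every mouse correlated best with its own number. With the replicate block 116 genes passed the threshold, and 142 with the block and the length trend removed. In these paired fits 0 of the 10 genes and 1 of the other 104 (*Lrp1*) passed, and *Mustn1* stayed at -0.96 and -0.90.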
